A study of Mus musculus with 9 samples.

Results

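The 10 genes described here encode calcium-signalling proteins of the S100 and annexin families: S100a4, S100a6, S100a10, S100a11, S100a13, Anxa1, Anxa2, Anxa3, Anxa5 and Anxa6. They were taken by symbol from tables of 24411 genes, and all 10 were found. RNA was sequenced from mouse EB5 embryonic stem cells, a male line derived from E14tg2a on a 129 background that carries a blasticidin resistance cassette behind an internal ribosome entry site at 1 of its Oct3/4 alleles. All cells were grown in serum with leukemia inhibitory factor on gelatin. There were 3 libraries each of Parental cells, of Zfp352-KO cells, in which CRISPR-Cas9 had deleted Zfp352, and of Zfp352/Zfp353-DKO cells, in which it had deleted Zfp352 and Zfp353. All 3 genotypes share the EB5 background, including the altered Oct3/4 allele. The labels do not say how many clones were edited or whether libraries came from separate cultures, and the p-values below therefore cover only how much these particular libraries vary, a spread that may be technical.

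S100 proteins are small proteins with paired EF hands, the helix-loop-helix fold that binds calcium, and they mostly act as dimers that grip a partner protein once calcium is bound. Annexins are larger proteins that bind acidic phospholipids of membranes in a calcium-dependent way. The families meet in defined complexes: S100a10, which no longer needs calcium, holds Anxa2 at the plasma membrane, and S100a11 binds Anxa1. Both families are known for roles in membrane repair, vesicle traffic and the cortical actin cytoskeleton, and several members are abundant in epithelial and mesenchymal cells.

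Expected counts per library summed to between 16599004 and 22044820. Zfp352, the targeted gene, had a mean TPM (a relative abundance normalised for transcript length and library size) of 1.86 ± 0.162 in Parental cells (SD, n = 3), which compares with 0.293 ± 0.126 for Zfp352-KO and 0.0733 ± 0.0577 for Zfp352/Zfp353-DKO. It fell in both edited genotypes (log2 fold change -2.65 ± 0.32 and -4.64 ± 0.42, SE; edgeR adjusted p = 6.1e-05 and 8.0e-07), and Zfp353 was not analysed here. The 8 embryonic stem cell markers examined summed to 6540 to 6748 TPM over all 9 libraries, Pou5f1 among them with group means of 1128 to 1163 TPM. The largest part of that sum was Dppa5a, with group means of 3214 to 3326 TPM. Tested singly against Parental cells, 0 of the 8 were called lower, beside 3.64% (Zfp352-KO) and 4.82% (Zfp352/Zfp353-DKO) of all tested genes. Tfcp2l1 was called higher in both edited genotypes (log2 fold change 0.37 each, edgeR adjusted p = 0.00081 and 0.00042). Sox2 was called higher only with both genes deleted (0.19, adjusted p = 0.011). One library stood apart. In Zfp352/Zfp353-DKO library 3 the macrophage genes Lyz2, Csf1r and Adgre1 were at 19.7, 1.52 and 1.11 TPM, against at most 0.58, 0.35 and 0.11 TPM in the other 8 libraries. Ptprc, which encodes the pan-leukocyte surface protein CD45, was at 0.10 TPM there. The part of this in the results was not tested, and values without that library are given below.

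The 3 abundant S100 genes, S100a6, S100a10 and S100a11, were lower in both edited genotypes than in Parental cells. S100a6, known as calcyclin, was at 114, 113 and 99.8 TPM in Parental libraries 1 to 3. It was at 68.5, 68.5 and 76.2 TPM in Zfp352-KO libraries and at 62.8, 67.8 and 66.7 TPM in Zfp352/Zfp353-DKO libraries. Every Parental library lay above every edited library, and the Zfp352/Zfp353-DKO libraries lay just below the Zfp352-KO ones in TPM but overlapped them in counts scaled to library size. S100a6 fell by 0.66 on the log2 scale in Zfp352-KO cells (SE 0.08, 36.7% lower, adjusted p = 4.4e-05) and by 0.77 in Zfp352/Zfp353-DKO cells (SE 0.08, 41.3% lower, adjusted p = 2.5e-06), by the quasi-likelihood test of edgeR, with p-values adjusted by Benjamini-Hochberg over 14300 genes. Of the S100 genes that passed the test, it fell most in both comparisons.

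S100a10, the light chain of the Anxa2 complex, was at 166, 149 and 146 TPM in Parental cells, at 126, 128 and 123 TPM in Zfp352-KO cells and at 113, 119 and 116 TPM in Zfp352/Zfp353-DKO cells. The 3 genotypes did not overlap. It fell by 0.34 ± 0.06 (log2, SE; adjusted p = 0.0031) and by 0.44 ± 0.06 (adjusted p = 0.00014) against Parental. S100a11, which binds Anxa1 and was the most abundant of the 10 genes, was at 208, 214 and 195 TPM in Parental cells. Its values were 184, 162 and 169 TPM in Zfp352-KO and 158, 157 and 154 TPM in Zfp352/Zfp353-DKO libraries. Parental libraries again lay above all edited ones. S100a11 fell by 0.31 ± 0.06 (log2, SE; adjusted p = 0.0071) and by 0.44 ± 0.06 (adjusted p = 0.00022). Its call in Zfp352-KO cells was lost without Parental library 1 or 2 (adjusted p = 0.053 each) or Zfp352-KO library 2 (adjusted p = 0.058).

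The remaining S100 genes were scarce. S100a13, which takes part in the export of leaderless growth factors such as Fgf1, was at 8.93, 9.29 and 10.7 TPM in Parental cells. It was at 6.96, 6.71 and 8.75 TPM in Zfp352-KO and at 5.27, 8.86 and 8.37 TPM in Zfp352/Zfp353-DKO cells, below each Parental library but by a small margin. The differences of -0.40 ± 0.19 and -0.41 ± 0.19 (log2, SE) did not pass the test (edgeR adjusted p = 0.21 and 0.19). S100a13 also overlaps the neighbouring S100a1 by 98 bases, and whether the counting used the strand is not given in the sources used here. S100a4, known as a partner of non-muscle myosin and a fibroblast marker, had 13, 8 and 5 counts in Parental libraries, 1, 5 and 5 for Zfp352-KO and 2, 1 and 9 for Zfp352/Zfp353-DKO. These are at most 2.54 TPM, and S100a4 did not pass the filter on low counts and was not tested. Its highest level in an edited library, 2.18 TPM, was in Zfp352/Zfp353-DKO library 3, the library with raised macrophage genes.

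Of the annexins, Anxa3 changed most. Anxa3, one of the less abundant annexins here, was at 21.5, 20.1 and 18.8 TPM in Parental libraries. It was at 10.3, 11.8 and 11.5 TPM in Zfp352-KO and at 7.22, 7.20 and 8.60 TPM in Zfp352/Zfp353-DKO libraries. The 3 genotypes formed 3 separate ranges, with the Zfp352/Zfp353-DKO libraries lowest. Anxa3 fell by 0.89 ± 0.10 in Zfp352-KO cells (log2, SE; 45.9% lower, adjusted p = 2.4e-05) and by 1.44 ± 0.10 in Zfp352/Zfp353-DKO cells (63.1% lower, adjusted p = 3.0e-08) by the same edgeR test.

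Anxa1, the annexin known for its receptor-mediated damping of inflammation and as a substrate of the EGF receptor, was at 30.8, 37.4 and 37.2 TPM in Parental cells. Its levels were 28.2, 24.9 and 24.5 TPM in Zfp352-KO and 17.8, 19.6 and 22.6 TPM in Zfp352/Zfp353-DKO cells, again as 3 separate ranges. Anxa1 fell by 0.49 ± 0.09 (log2, SE; 28.8% lower, adjusted p = 0.0026) and by 0.86 ± 0.09 (44.9% lower, adjusted p = 4.6e-06). Anxa5, whose protein binds phosphatidylserine and is the common probe for dying cells, was at 16.2, 18.2 and 21.1 TPM in Parental cells. It was at 11.6, 13.3 and 13.4 TPM in Zfp352-KO and at 10.8, 12.7 and 10.6 TPM in Zfp352/Zfp353-DKO cells, so that the edited genotypes overlapped each other but not the Parental libraries. Anxa5 fell by 0.57 ± 0.11 (log2, SE; adjusted p = 0.0033) and by 0.74 ± 0.11 (adjusted p = 0.00020).

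Anxa2, the heavy chain of the S100a10 complex and a cell surface anchor for plasminogen activation, varied most between libraries of 1 genotype among the called genes. It was at 79.1, 69.6 and 69.7 TPM in Parental cells, at 42.9, 36.7 and 59.3 TPM in Zfp352-KO cells and at 53.7, 44.5 and 55.9 TPM in Zfp352/Zfp353-DKO cells. All edited libraries lay below the Parental ones, and the ranges of the edited genotypes overlapped. Anxa2 fell by 0.70 ± 0.12 (log2, SE; 38.2% lower, adjusted p = 0.0026) in Zfp352-KO and by 0.54 ± 0.12 (31.4% lower, adjusted p = 0.0088) in Zfp352/Zfp353-DKO cells. The latter call was lost with DESeq2 (adjusted p = 0.082), without Parental library 1 (edgeR adjusted p = 0.076) and without Zfp352/Zfp353-DKO library 2 (edgeR adjusted p = 0.065).

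Anxa6, a large annexin with a duplicated core that is known to bind membranes and cholesterol-rich endosomes, moved least. Its level was 113, 116 and 109 TPM in Parental libraries. It was 113, 119 and 106 TPM for Zfp352-KO and 101, 105 and 101 TPM for Zfp352/Zfp353-DKO. Parental and Zfp352-KO libraries overlapped, with a log2 difference of -0.04 ± 0.05 (SE, edgeR adjusted p = 0.67). Zfp352/Zfp353-DKO libraries lay just below them, at -0.17 ± 0.05 (SE, 11.4% lower, edgeR adjusted p = 0.045). That call was lost when any of 7 single libraries was left out (adjusted p = 0.051 to 0.22), all except Parental library 3 and Zfp352-KO library 1.

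**Figure D1:**
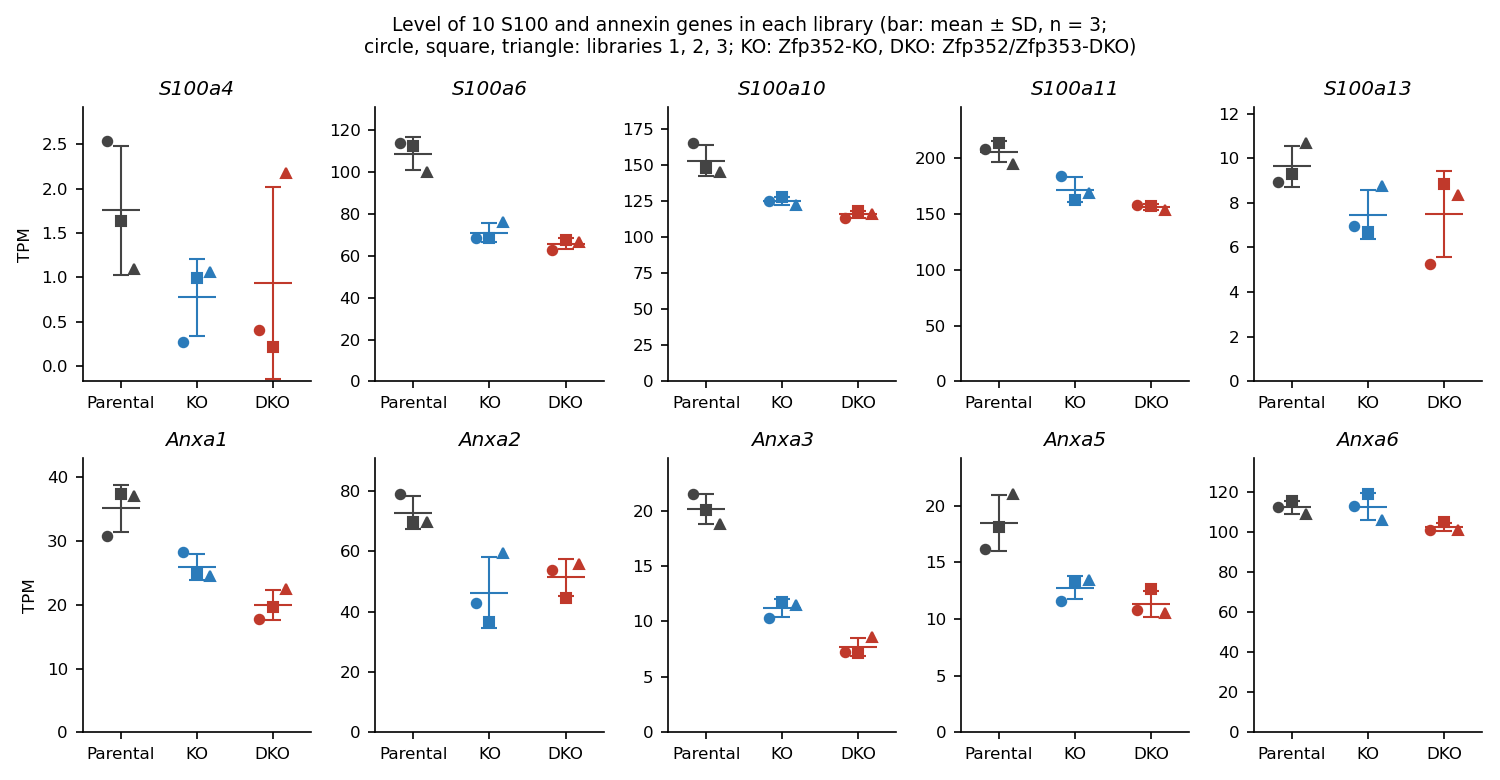
Level of each of the 10 genes in TPM (y axis, a scale of its own for each gene) in Parental, Zfp352-KO (KO) and Zfp352/Zfp353-DKO (DKO) cells; symbols are single libraries and bars are mean ± SD, n = 3. For S100a6, S100a10, S100a11, Anxa1, Anxa2, Anxa3 and Anxa5 every Parental library lies above every edited library, while Anxa6 overlaps between Parental and KO cells and S100a4 is below 3 TPM throughout.

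Counted together, 7 of the 9 tested genes were lower and 0 were higher in Zfp352-KO than in Parental cells, where 3.64% of all 14300 tested genes were called lower and 3.43% higher. In Zfp352/Zfp353-DKO cells 8 of 9 were lower and 0 higher, against 4.82% lower and 3.65% higher of all tested genes. The gene added in the second comparison was Anxa6. At an unadjusted p under 0.05 the numbers of genes were 8 and 9, all of them below Parental, and DESeq2 also called 0 genes higher in either comparison. The share of all tested genes at that unadjusted threshold is not given here, and the shares above do not apply to it. The median log2 fold change of the 9 genes was -0.49 and -0.54, beside -0.01 and 0.00 over all tested genes. In CPM, which are counts scaled to library size, 8 and 9 of the 9 genes had all edited libraries below all Parental ones, which held for 14.4% and 15.0% of all tested genes. These comparisons share the Parental libraries, so their values are not independent of each other. In such bulk samples, fewer cells of a type that carries these transcripts and less RNA per cell cannot be told apart.

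**Figure D2:**
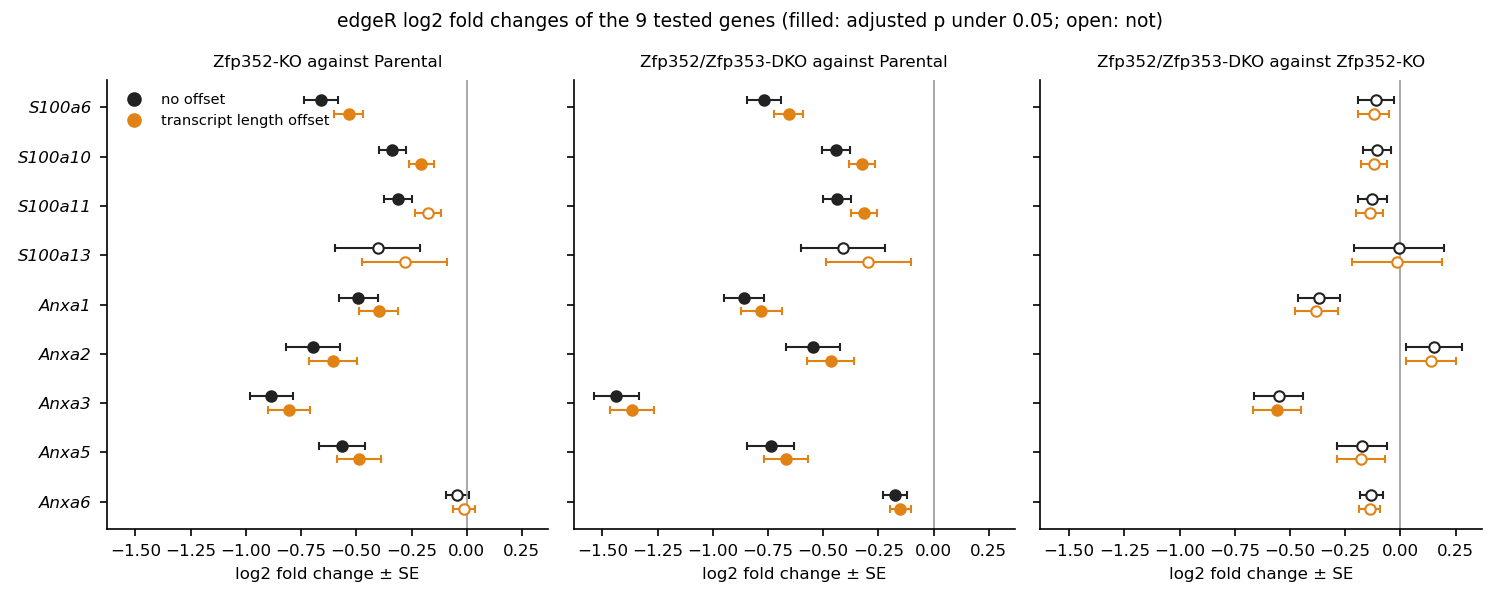
Log2 fold change ± SE (x axis) of the 9 tested genes in the 3 comparisons, from edgeR without an offset (black) and with a per-library transcript length offset (orange); filled points have an adjusted p under 0.05. In both comparisons with Parental cells the points lie at or left of 0, Anxa3 farthest left at -0.89 and -1.44, and the offset moves the short S100 transcripts toward 0.

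The S100 transcripts are short, and transcript length bears on their values. They run from 499 to 719 bases in the deposited tables, against 1374 to 2653 bases for the annexins. Among the 1081 tested genes with transcripts under 1000 bases, 8.14% were called lower with Zfp352 deleted and 7.49% with both genes deleted, with median log2 fold changes of -0.11 and -0.09. Of the 3328 tested genes from 1000 to under 2000 bases, where Anxa1, Anxa2, Anxa3 and Anxa5 belong, 6.04% and 6.58% were called lower. Their median log2 fold changes were -0.073 and -0.055, beside 0.055 and 0.052 for genes of 3000 bases or more. Over all tested genes 3.64% and 4.82% were called lower. With a per-library offset that removes the trend of log2 CPM on length, S100a6 was at -0.53 and -0.66 (edgeR adjusted p = 1.6e-05 and 3.0e-07). S100a10 was then at -0.21 (adjusted p = 0.035) and -0.32, and S100a11 lost its call in Zfp352-KO cells (-0.17, adjusted p = 0.076) but not in Zfp352/Zfp353-DKO cells (-0.31, adjusted p = 0.00097). With GC content added to the offset the S100a11 call in Zfp352-KO cells was kept (-0.21, adjusted p = 0.020).

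Part of the S100a11 and S100a4 transcripts is also shared with other annotated genes. Of the stretches of 75 bases, the read length, 37.8% in S100a11 occur in the predicted genes Gm12854 or Gm7665, and 53.8% in S100a4 occur in Gm42674. The other 8 genes shared no such stretch. All expected counts of the 10 genes were whole numbers in the 9 libraries.

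Leaving out Zfp352/Zfp353-DKO library 3, the library with raised macrophage genes, the falls against Parental were about as large. S100a6 was then at -0.76, S100a10 at -0.42, S100a11 at -0.40, Anxa1 at -0.93, Anxa2 at -0.58, Anxa3 at -1.50 and Anxa5 at -0.67 (log2, edgeR adjusted p = 4.4e-08 to 0.011). Of the 8 genes called lower, Anxa6 alone lost its call (-0.15, adjusted p = 0.15). S100a4 had 2 and 1 counts in the 2 libraries left.

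Between Zfp352/Zfp353-DKO and Zfp352-KO cells 0 of the 9 genes were called by edgeR, where 0.0909% of all tested genes were called lower and 0.0140% higher. At an unadjusted p under 0.05 there were 3 genes, all lower, and DESeq2 called 1, Anxa3. The shares of all tested genes under these other rules are not given here, and those above do not apply to them. Anxa3 stood at -0.55 ± 0.11 on the log2 scale (SE, edgeR adjusted p = 0.070), with the 3 Zfp352/Zfp353-DKO libraries below the 3 Zfp352-KO libraries. The call of Anxa3 passed with the length offset (edgeR adjusted p = 0.025), with GC content added (adjusted p = 0.016) and without Zfp352/Zfp353-DKO library 3 (adjusted p = 0.048). Anxa1 was at -0.37 ± 0.09 (adjusted p = 0.23) and Anxa6 at -0.13 (adjusted p = 0.66), also with no overlap between libraries in CPM. S100a10 was the fourth gene whose libraries did not overlap in CPM (-0.11, adjusted p = 0.86), and of all tested genes 5.60% were lower and 5.49% higher without overlap. The other 5 genes overlapped in CPM, and Anxa2 was the only one above 0 (0.15 ± 0.13, SE, adjusted p = 0.93).

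The order of the levels within a genotype was nearly the same throughout. In Parental cells S100a11 led with 206 TPM, followed by S100a10 (153), Anxa6 (113), S100a6 (109), Anxa2 (72.8), Anxa1 (35.1), Anxa3 (20.1), Anxa5 (18.5), S100a13 (9.64) and S100a4 (1.76 TPM), as group means. The libraries of Anxa6 and S100a6 overlapped, as did those of Anxa3 and Anxa5, and the other neighbours in that order did not. In Zfp352-KO cells Anxa6 (113 TPM) and S100a6 (71.1 TPM) had moved apart, and Anxa5 (12.8 TPM) and Anxa3 (11.2 TPM) still overlapped. In Zfp352/Zfp353-DKO cells Anxa3 (7.67 TPM) had dropped below Anxa5 (11.3 TPM) without overlap and to the level of S100a13 (7.50 TPM). Summed over the 5 genes of each family, S100 transcripts made up 479 ± 24.2 TPM of Parental, 376 ± 9.49 TPM of Zfp352-KO and 346 ± 6.17 TPM of Zfp352/Zfp353-DKO RNA (SD, n = 3). Annexin transcripts summed to 259 ± 2.84, 209 ± 5.03 and 193 ± 5.28 TPM.

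The transcripts of known partners were also set against each other within libraries. S100a10 exceeded Anxa2 by a ratio of TPM of 2.10, 2.14 and 2.09 in the Parental libraries. The ratio spread to 2.92, 3.48 and 2.07 in Zfp352-KO and was 2.11, 2.67 and 2.08 in Zfp352/Zfp353-DKO libraries, so the 3 genotypes overlapped. For S100a11 and Anxa1 the ratio was 6.76, 5.71 and 5.25 among Parental libraries. It was 6.51, 6.52 and 6.90 for Zfp352-KO and 8.90, 8.00 and 6.81 for Zfp352/Zfp353-DKO. Every Zfp352/Zfp353-DKO library lay above every Parental library in that ratio, and Zfp352-KO overlapped both.

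The rest of the families gave fewer calls. Of 12 other S100 genes 11 had a row, 3 were tested and 0 were called in either comparison with Parental cells. At an unadjusted p under 0.05 there were 1 (Zfp352-KO) and 2 (Zfp352/Zfp353-DKO), with no share of all tested genes at that threshold given here. All 3 lay below 0 in both comparisons, with a median log2 fold change of -0.44 in each. The 4 tested S100 genes described here had medians of -0.37 and -0.44. Calls for the 3 are limited by their 9 to 64 counts per library. S100a14, an epithelial S100 gene, was at -0.95 ± 0.33 and -0.80 ± 0.32 (log2, SE; edgeR adjusted p = 0.083 and 0.13) from 2.28 TPM in Parental cells, and S100a16 at -0.42 ± 0.20 and -0.44 ± 0.20 (adjusted p = 0.22 and 0.19). S100a1 overlaps S100a13 and was at -0.44 ± 0.30 and -0.19 ± 0.29. The neutrophil gene S100a8 had 0 counts in every library, as had S100a5 and S100z.

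Of 7 other annexins 5 were tested. In each comparison with Parental cells 1 was called lower, beside 3.64% and 4.82% of all tested genes. It was Anxa7, an annexin of secretory granules, with levels of 69.4 ± 1.19 TPM (Parental), 64.4 ± 2.05 TPM (Zfp352-KO) and 64.2 ± 1.44 TPM (Zfp352/Zfp353-DKO). Its difference of -0.15 ± 0.04 (log2, SE) passed narrowly in both comparisons (edgeR adjusted p = 0.045 and 0.044) and was lost with DESeq2 (adjusted p = 0.060 and 0.064). The abundant Anxa11, at 126 ± 4.48 TPM in Parental cells, was at -0.07 ± 0.05 and -0.09 ± 0.05. Anxa4, Anxa8 and Anxa9 were not called either, and Anxa8 lay above 0 (0.44 ± 0.18 and 0.27 ± 0.18, edgeR adjusted p = 0.13 and 0.38).

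**Figure D3:**
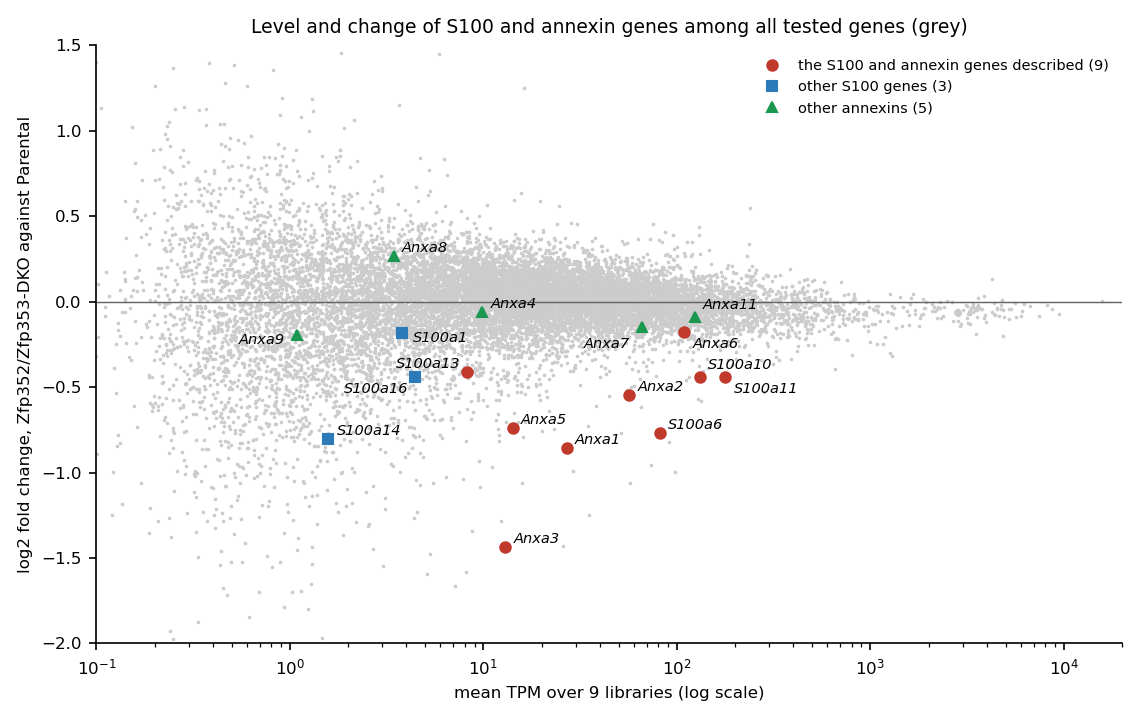
Log2 fold change of Zfp352/Zfp353-DKO against Parental cells (y axis) against mean TPM over 9 libraries (x axis, log scale) for all tested genes (grey, 32 of 14300 outside the axes), with the 9 tested genes described here as red circles, 3 other S100 genes as blue squares and 5 other annexins as green triangles. Anxa6, Anxa7 and Anxa11 lie close to 0 at similar or higher levels than Anxa2 and S100a6, which lie at -0.54 and -0.77.

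Genes whose products work with these proteins were read from 2 lists. Of 18 binding partners and receptors 13 were tested. Over all tested genes 3.64% were called lower and 3.43% higher in Zfp352-KO cells, and 4.82% and 3.65% in Zfp352/Zfp353-DKO cells. In Zfp352-KO cells 1 was lower and 0 were higher, and in Zfp352/Zfp353-DKO cells 1 was lower and 1 higher. The lower one was Plat, tissue plasminogen activator, whose product the Anxa2 complex binds at the cell surface. Parental cells held 2.39 ± 0.0473 TPM of it, against 1.47 ± 0.233 TPM for Zfp352-KO and 1.21 ± 0.259 TPM for Zfp352/Zfp353-DKO (log2 fold change -0.75 ± 0.18 and -1.04 ± 0.19, SE; edgeR adjusted p = 0.021 and 0.0019). The first of these calls was lost without Parental library 1 (adjusted p = 0.10) or 2 (0.074) or Zfp352-KO library 1 (0.068) or 3 (0.058). Dlc1, whose product binds S100a10, rose by 0.25 ± 0.05 in Zfp352/Zfp353-DKO cells (adjusted p = 0.0035). Ahnak, the giant scaffold of the S100a10 and Anxa2 complex, was at 0.03 ± 0.07 and -0.20 ± 0.07 (adjusted p = 0.83 and 0.10), and Cacybp, which binds S100a6, at 0.13 ± 0.05 and 0.11 ± 0.05 (adjusted p = 0.087 and 0.14).

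Of 14 plasma membrane repair genes 13 were tested, and in each comparison with Parental cells 4 were lower and 1 was higher. The shares over all tested genes were 3.64% and 4.82% lower and 3.43% and 3.65% higher. The calcium-activated protease calpain 2 was represented by its catalytic subunit Capn2 (log2 fold change -0.58 ± 0.07 and -0.74 ± 0.07, SE) and its regulatory subunit Capns1 (-0.29 ± 0.05 and -0.31 ± 0.05). The caveola genes Cav1 (-1.32 ± 0.23 and -1.30 ± 0.23) and Ptrf, which encodes cavin 1 (-0.56 ± 0.06 and -0.50 ± 0.06), fell as well. Myof, myoferlin, rose by 0.44 ± 0.07 and 0.36 ± 0.07. Adjusted p-values of these 5 genes by the same edgeR test were at most 0.0026. The median of the 13 genes was -0.09 and -0.10, and the other 8 were not called.

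Markers of some other cell types differed in the same comparisons, while the sums of others overlapped. Summed over 15 fibroblast-type markers, TPM ran from 92.9 to 104 among Parental libraries, from 59.1 to 68.2 among Zfp352-KO and from 44.3 to 50.6 among Zfp352/Zfp353-DKO libraries. The largest part of that sum was Tagln, at 51.8 ± 2.77 TPM in Parental cells. Of the 12 tested, 5 were lower and 0 higher in each comparison with Parental cells. For this and the lists below, the shares over all tested genes were 3.64% and 4.82% lower and 3.43% and 3.65% higher. The other 7 fibroblast-type markers were not called, Pdgfra among them at -0.03 and -0.05 (log2), though 11 of the 12 lay below 0 in each comparison. Of the 15 markers, Col1a1 was at 11.9 ± 1.29 TPM in Parental cells, and Lum was at 0 in all Parental and Zfp352-KO libraries. Summed over 10 trophectoderm markers the ranges were 401 to 459, 295 to 299 and 262 to 274 TPM, most of it Krt8, Krt18 and Krt19. Of the 9 tested, 5 were lower and 0 higher in each of those comparisons, namely these keratins, Cdx2 and Hand1. The 4 not called were Krt7, Eomes, Tfap2c and Gata3. Krt8, which with Krt18 builds the filaments of simple epithelia, was at 139 ± 9.75 TPM in Parental cells, while Cdx2, a defining trophectoderm factor, was at 1.97 ± 0.344 TPM. Primitive endoderm markers summed to 37.4 to 46.7, 33.8 to 43.4 and 37.1 to 45.8 TPM, so the genotypes overlapped in the sum. Of the 8 tested, Col4a1 was called lower in both comparisons with Parental cells (log2 -0.50 and -0.49, edgeR adjusted p = 0.0011 and 0.00061). Lama1 was called higher in Zfp352/Zfp353-DKO cells (0.37, edgeR adjusted p = 0.0041). Endothelial markers summed to 95.3 to 103, 110 to 113 and 114 to 123 TPM, nearly all of it Pecam1, and of the 4 tested 0 were called in Zfp352-KO and 1 was called higher in Zfp352/Zfp353-DKO cells. Macrophage markers summed to 17.5 to 22.8, 19.2 to 22.4 and 22.4 to 48.1 TPM, most of it Cd68. The part of these cell types in the levels of the S100 and annexin genes was not tested.

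For S100a6 and Anxa3, the S100 gene and the annexin with the smallest adjusted p in Zfp352/Zfp353-DKO cells, the genes with the most similar profile were sought among 7639 genes with a mean of at least 10 TPM. The measure was the root mean square difference of centred log2 CPM over the 9 libraries, with no test. Nearest to S100a6 were Krt18 (0.078), the tropomyosin gene Tpm1 (0.094), the claudin gene Cldn7 (0.095), Clu, which encodes clusterin (0.097), and the TWEAK receptor gene Tnfrsf12a (0.10), where the median over all genes was 0.35. Nearest to Anxa3 were the actin-binding gene Tagln (0.12), Igfbp3, which encodes an IGF-binding protein (0.14), the matricellular genes Thbs1 (0.17) and Cyr61 (0.18), and Krt8 (0.21), with a median of 0.60. These profiles share the libraries and their depth. The nearest genes lie below the median by the way they were picked. S100a6 and Anxa3 were themselves picked by their change against Parental cells, so genes near them change likewise.

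All 5 S100 genes and Anxa5 lie on chromosome 3 (GRCm38.p6). S100a13 (90514233 to 90524581), S100a4 (90603770 to 90606045) and S100a6 (90612894 to 90614414) lie in 1 group of S100 genes, with S100a14 and S100a16 between S100a13 and S100a4, and S100a11 (93520496 to 93526288) and S100a10 (93555117 to 93564645) lie 2906 kb farther on, 28.8 kb apart. Anxa5 lies far from them (36448923 to 36475887), and Anxa3, Anxa2, Anxa6 and Anxa1 lie on chromosomes 5, 9, 11 and 19. Of 51 other tested genes within 500 kb of any of the 10, a distance chosen after values were seen, 3 were lower in both comparisons with Parental cells and 1 was higher in Zfp352/Zfp353-DKO cells. The lower ones were Tdpoz4, Atox1 and Sparc. Of all 14300 tested genes 3.64% and 4.82% were called lower in those comparisons, and 3.65% were called higher in Zfp352/Zfp353-DKO cells.

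Along the stretch of chromosome 3 from 500 kb before S100a13 to 500 kb past Tdpoz4, 31 genes were tested, and 7 of them were lower and 0 higher in each comparison with Parental cells. Besides S100a6, S100a11 and S100a10 they were Tdpoz4, a gene of the early embryo 232 kb from S100a10, and the epithelial genes Sprr2a1, Sprr2a2 and Sprr2a3, which lie between S100a6 and S100a11. This stretch was also chosen after the values were seen, and because it holds genes described here. Over all tested genes the shares called were 3.64% and 4.82% lower and 3.43% and 3.65% higher. Tdpoz4 had 5.23 ± 0.698 TPM in Parental cells, 0.293 ± 0.161 TPM with Zfp352 deleted and 0.127 ± 0.110 TPM with both genes deleted (log2 fold change -4.11 ± 0.37 and -5.35 ± 0.43, SE; edgeR adjusted p = 2.2e-06 and 1.8e-07). Sprr2a1 and Sprr2a2 had identical values in every library (1.27 ± 0.332 TPM in Parental cells) and share reads with Sprr2a3, so single values are uncertain. Sprr2a3 had 0 counts in all Zfp352/Zfp353-DKO libraries. The S100 genes of this stretch changed far less than these neighbours on the log2 scale.

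**Figure D4:**
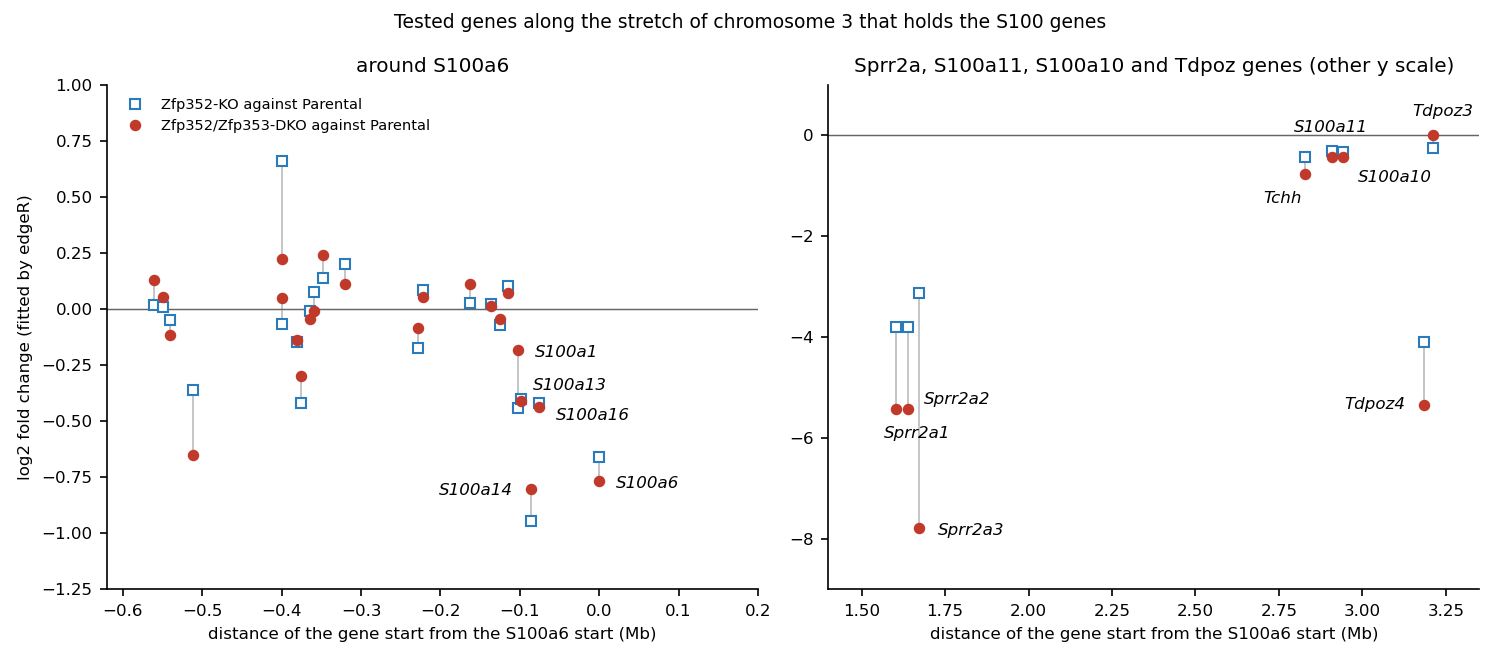
Log2 fold change of the 31 tested genes along the stretch of chromosome 3 that holds the S100 genes (y axis, a different scale in each panel) against the distance of the gene start from that of S100a6 in Mb (x axis); open blue squares are Zfp352-KO and filled red circles Zfp352/Zfp353-DKO, each against Parental cells, joined by a line for each gene. S100a6 lies at -0.66 and -0.77. The tested S100 genes nearest to it also lie below 0 but were not called. They are S100a14 (-0.95 and -0.80), S100a16 (-0.42 and -0.44), S100a13 (-0.40 and -0.41) and S100a1 (-0.44 and -0.19). Genes farther from S100a6 in that panel lie mostly near 0. S100a10 and S100a11 lie near -0.4 beside Tdpoz4 at -4.11 and -5.35. The Sprr2a3 circle is a fitted value for a gene with 0 counts and not a measured fold.

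Promoter sequences of 7 of the 10 genes were matched in a RefSeq table of GRCm38.p6, namely S100a4, S100a6, S100a11, S100a13, Anxa1, Anxa2 and Anxa5. The 250 bases before the annotated start are printed for the 5 of them that fell in both edited genotypes, so that what lies before these genes can be read beside their values. They run 5′ to 3′ on the strand of the gene, and capitals mark matches to 4 motifs: AP-1 (TGAGTCA or TGACTCA), the GC box (GGGCGG or CCGCCC), the TEAD motif (GGAATG or CATTCC), each on either strand, and the TATA box (TATAAA, on the strand of the gene).
S100a6 (chr3:90612644-90612893, plus strand): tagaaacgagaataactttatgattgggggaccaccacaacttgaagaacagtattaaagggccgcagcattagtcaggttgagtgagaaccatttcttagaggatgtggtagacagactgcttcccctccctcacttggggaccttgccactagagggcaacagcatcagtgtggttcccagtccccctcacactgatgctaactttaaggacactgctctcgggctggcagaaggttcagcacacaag
S100a11 (chr3:93520246-93520495, plus strand): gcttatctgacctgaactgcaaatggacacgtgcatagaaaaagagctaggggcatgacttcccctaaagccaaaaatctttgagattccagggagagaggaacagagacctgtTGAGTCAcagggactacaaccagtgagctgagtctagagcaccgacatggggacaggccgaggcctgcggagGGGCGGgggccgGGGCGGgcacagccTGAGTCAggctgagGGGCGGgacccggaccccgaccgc
Anxa1 (chr19:20390672-20390921, minus strand): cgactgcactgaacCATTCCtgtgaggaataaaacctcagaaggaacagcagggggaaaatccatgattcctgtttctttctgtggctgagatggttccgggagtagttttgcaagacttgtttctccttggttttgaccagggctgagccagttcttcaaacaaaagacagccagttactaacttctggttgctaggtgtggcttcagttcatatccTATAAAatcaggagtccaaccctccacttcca
Anxa2 (chr9:69453433-69453682, plus strand): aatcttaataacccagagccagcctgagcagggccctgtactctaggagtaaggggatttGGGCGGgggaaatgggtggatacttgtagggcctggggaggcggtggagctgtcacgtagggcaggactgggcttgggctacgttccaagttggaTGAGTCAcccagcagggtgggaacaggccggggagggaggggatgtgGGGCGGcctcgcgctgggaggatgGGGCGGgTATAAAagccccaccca
Anxa5 (chr3:36475888-36476137, minus strand): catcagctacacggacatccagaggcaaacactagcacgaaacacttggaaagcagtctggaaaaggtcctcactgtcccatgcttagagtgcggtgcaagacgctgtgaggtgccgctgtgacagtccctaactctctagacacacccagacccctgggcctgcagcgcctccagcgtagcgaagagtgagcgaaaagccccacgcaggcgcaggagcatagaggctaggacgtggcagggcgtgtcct

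An AP-1 match was found in 2 of the 7 promoters, at 136 and 38 bases before the start of S100a11 and at 95 bases before that of Anxa2, and in 4.46% of 32851 promoters of the same length. GC boxes were in the same 2 promoters, with 3 matches each, and in 32.7% of all. The TATA box was found in S100a4, Anxa1 and Anxa2 and in 7.59% of all promoters, and the TEAD motif in Anxa1 and in 12.6%. Neither S100a6 nor Anxa5, which fell by 0.77 and 0.74 on the log2 scale in Zfp352/Zfp353-DKO cells, had any of the 4 motifs in this window. No match says only that these letters are not in the window, and a match is not evidence of binding.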

How the data were processed

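Per the labels, stranded libraries of polyadenylated RNA from 9 samples were read as single ends of 75 bases. Trim Galore 0.6.6, STAR 2.7.8a, RSEM 1.3.3 and the mm10 build are named in the list per the submitters' processing notes. How they were set, which annotation release was used and whether counting was by strand: not given in the sources used here. The authors deposited expected counts (RSEM estimates, of which 9.27% were not whole), TPM and FPKM for each gene, per the file headers. Levels are shown in the deposited TPM, and the deposited FPKM values were left aside. Depth sets the precision: of the 10 genes, each tested one had at least 39 counts in every library.

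The expected counts were rounded, and edgeR 4.0.16 (R 4.3.3) ran its two-sided quasi-likelihood test with TMM factors and the filterByExpr filter. A single model by genotype held the 9 libraries and left 6 residual degrees of freedom. A call means an adjusted p (Benjamini-Hochberg, 14300 genes) under 0.05. Scripts were tested on simulated data. The 10 genes, the other lists and the tests were chosen with earlier results of these data known. All 10 are named. Of the other lists, any tested gene could be named, and the 5 genes nearest in profile to 1 S100 gene and 1 annexin are named. Alternatives were DESeq2 1.42.0, limma-trend (limma 3.58.1) on log2(TPM + 1) and log2(TPM + 0.1), other scalings, filters and thresholds, a replicate block, loess offsets (span 0.3) for transcript length and GC content, fits restricted to 6 libraries, and leaving out each library. Positions are 1-based RefSeq coordinates of GRCm38.p6, the assembly called mm10, where all 10 symbols matched.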

Additional observations from a re-analysis of the deposited data

How the results depend on the processing

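Between Zfp352-KO and Parental cells 6 to 7 of the 9 tested genes were called lower under every alternative, and between Zfp352/Zfp353-DKO and Parental cells 6 to 8 were, with 0 higher throughout. With single libraries left out the ranges were also 6 to 7 and 6 to 8. The count of 0 between the edited genotypes became 1 with DESeq2, 2 with no filter on low counts (Anxa1 and Anxa3), 1 with the length offset and 1 with the length and GC offset, and ran from 0 to 1 with single libraries left out. The share of all tested genes called under each alternative is not given here. These counts therefore show only how stable the calls of the 9 genes were. With the replicate number as a block the counts were 7, 8 and 0, and no call of the 9 genes changed. Same-numbered libraries showed no clear shared deviation (r from -0.077 to 0.11 over 9 pairs, 1 over 0.1). Libraries of different number ran from -0.084 to 0.10 over 18 pairs. With 3 libraries per genotype this cannot exclude that same-numbered libraries were prepared together.

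Of 540 values of the 9 genes under the alternatives, 507 kept direction and side of the threshold, 19 lost the call, 6 gained it and 8 changed sign, all 8 among values that had not passed the test. S100a13 between the edited genotypes was at 0.00 with the replicate block and ran from -0.16 to 0.14 and 0.19 with 1 library left out. Anxa2 between the edited genotypes ran from 0.00 without Zfp352-KO replicate 2 to 0.39 without Zfp352-KO replicate 3. Anxa6 between Zfp352-KO and Parental was at 0.00 with limma-trend, 0.02 with the length and GC offset and from -0.08 to 0.00 with single libraries left out. In Zfp352/Zfp353-DKO cells limma-trend lost Anxa2 (adjusted p = 0.060 and 0.059) and Anxa6 (0.13 with either pseudocount). The causes were not tested. Calls for S100a13 are limited by its 39 to 73 counts per library, and S100a4 is too scarce for any.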
